A study of Mus musculus with 32 samples.

Results

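Of 70013 ATAC-seq peaks listed for interstitial macrophages (IM) of C57BL6J mice, 429 overlapped an IM peak of DBA2J mice by 1 bp or more and overlapped no peak listed for the other 3 phagocyte types of the lung in either strain. These 429 regions, selected on the presence and absence of listed peaks, are called IM-only peaks here. ATAC-seq cuts DNA where chromatin is accessible, so a peak marks an open stretch such as a promoter or an enhancer. A peak that is missing from a list is not a measurement of closed chromatin, since the signal under it was not analysed here.

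The cells came from untreated DBA2J and C57BL6J mice, which are inbred strains, and were sorted from digested lungs as IM, alveolar macrophages (AM), inflammatory monocytes (iMo, macrophages in one label field) and patrolling monocytes (pMo). There were 2 RNA-seq and 2 ATAC-seq libraries per cell type and strain, which gives 16 RNA-seq libraries in 8 groups, and 1 peak list per group made from its 2 ATAC-seq libraries. The sort was by surface markers of macrophages, monocytes and granulocytes, with Ly6g and SiglecF among them. The labels name no age, genotype beyond the strain or agent, and do not say whether the libraries of a group came from separate mice, and the p-values below measure the spread among the libraries, which may be technical.

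Interstitial macrophages live in the tissue of the lung around airways, vessels and nerves, whereas alveolar macrophages live in the airspaces. IM are known for cytokine production, antigen presentation and clearance of dying cells, and are replenished in part by blood monocytes. Open chromatin in macrophages is known to be set largely by PU.1 together with AP-1, C/EBP, MAF and other factors, and regions far from promoters tend to differ more between macrophage types than promoters do.

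The sorted IM carried the RNA of their type. The summed RNA of 30 IM markers was 10030 to 19780 TPM in the 4 IM libraries, against 547.1 to 680.6 TPM in AM, 4945 to 6346 TPM in iMo and 4123 to 5525 TPM in pMo. None of these 30 markers was the nearest gene of an IM-only peak. The IM libraries also held RNA of other cells. Of 12 neutrophil markers 7 were tested and all 7 were called higher in IM than in each other type. The list summed to 2875 to 4728 TPM in IM, against 19.18 to 27.33 TPM in AM, 178.0 to 240.8 TPM in iMo and 111.5 to 162.6 TPM in pMo. Mpo was listed at 0 in all 4 IM libraries, and its bearing on the source of the other neutrophil RNA was not tested. Endothelial markers summed to 29.08 and 116.8 TPM in the DBA2J and 150.1 and 244.2 TPM in the C57BL6J IM libraries, against 21.94 to 108.5 TPM in AM, 20.62 to 33.53 TPM in iMo and 27.36 to 46.89 TPM in pMo, so the DBA2J IM libraries overlapped other types in part. In sorted bulk samples, fewer cells of a type and less RNA per cell cannot be told apart, and the part of these other cells in the results was not tested. The SD of the log2 difference between the libraries of a group was 0.885 in C57BL6J IM, the largest of all groups. It was 0.743 in DBA2J IM and 0.414 to 0.749 in the groups of the other types. Depth is unknown, since the RNA levels are relative transcript abundances (TPM) without counts, so precision is known from the spread between libraries alone.

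Promoter peaks at some genes called higher in IM on the scale as deposited are shown first. Genes not called higher also had such promoter stretches, among them Klf15, Igf2r and Unc119, and these are not printed. Each line gives the part of the peak that lies before the transcription start, in the direction of the gene, from the RefSeq promoter table of GRCm38.p6, and the coordinates are those of the stretch printed. The 5 genes were chosen after their values were seen. In the first 2 the capitals mark a match to a motif searched on both strands, GAGGAAGT (PU.1 and other ETS factors) for Il18rap and TGANTCA (AP-1) for Ctla2a.
Il18rap, chr1:40515243-40515361, plus strand: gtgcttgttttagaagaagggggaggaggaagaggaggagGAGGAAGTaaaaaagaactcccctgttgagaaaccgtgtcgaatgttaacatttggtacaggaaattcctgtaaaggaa
Ctla2a, chr13:60936581-60936781, minus strand: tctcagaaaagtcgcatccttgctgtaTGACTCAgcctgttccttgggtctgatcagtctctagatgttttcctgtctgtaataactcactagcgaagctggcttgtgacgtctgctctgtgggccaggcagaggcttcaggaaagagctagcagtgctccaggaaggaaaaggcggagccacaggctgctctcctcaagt
In the next 3 the capitals mark CG dinucleotides.
Pmp22, chr11:63131367-63131456, plus strand: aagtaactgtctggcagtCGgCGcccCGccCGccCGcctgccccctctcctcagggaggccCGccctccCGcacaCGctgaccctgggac
Kitl, chr10:100015625-100015820, plus strand: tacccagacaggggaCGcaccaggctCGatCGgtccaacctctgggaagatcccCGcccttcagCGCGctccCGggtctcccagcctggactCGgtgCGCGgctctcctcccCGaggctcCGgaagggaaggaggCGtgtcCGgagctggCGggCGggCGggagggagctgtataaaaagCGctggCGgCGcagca
Cd81, chr7:143052653-143052749, plus strand: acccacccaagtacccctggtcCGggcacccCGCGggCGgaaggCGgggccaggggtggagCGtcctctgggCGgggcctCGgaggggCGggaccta

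Il18rap and Ctla2a held 2 and 4 CG dinucleotides, against 8 in Pmp22, 20 in Kitl and 9 in Cd81. The G and C content was 43.7% in Il18rap and 52.2% in Ctla2a, against 74.4% in Pmp22, 69.9% in Kitl and 77.3% in Cd81. These are the 2 kinds of vertebrate promoter, poor and rich in CG. Of the 25 motifs searched, CAGACA (SMAD) was also found in the stretches of Ctla2a, Pmp22 and Kitl, where it is not in capitals, and none was found in that of Cd81. Of the 380 genes nearest to IM-only peaks 273 had a window in the promoter table, and 48 IM-only peaks overlapped 54 windows of 300 bases by at least 100 bp. At least 10 CG dinucleotides were found in 77.8% of these windows, against 85.9% of 11300 windows under other C57BL6J IM peaks and 43.5% of all 32817 windows. TGANTCA was found in 4 of the 54 windows (7.41%), in 4.72% of windows under other IM peaks and in 7.81% of all. CAGACA was found in 10 of 54 (18.5%), in 15.1% of windows under other IM peaks and in 21.0% of all. GAGGAAGT was found in 1 of 54 (1.85%), in 3.75% of windows under other IM peaks and in 3.20% of all. Neither of the NF-kB motifs searched was found in the 54 windows, which says only that their letters are not in these windows. A match is a description and not a binding site. Most IM-only peaks lie outside promoters, and their sequence was not analysed here.

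The IM-only peaks were, in the main, peaks of low score in the DBA2J list. The IM-only peaks were all 200 bp wide, as were all but 6 of the C57BL6J and 1 of the DBA2J IM peaks, and each peak carried a score from the authors of unstated scale, which is used for order within a list. The median place of the IM-only peaks was the top 86.8% of the 24429 DBA2J IM peaks and the top 45.3% of the 70013 C57BL6J IM peaks. The DBA2J list was the shortest of the 8 and the C57BL6J IM list the longest. Without the demand for a DBA2J peak, 20477 C57BL6J IM peaks overlapped no other type. Of the DBA2J IM peaks 600 overlapped no other type, and 422 of those overlapped a C57BL6J IM peak. The centres of the paired peaks lay a median of 17 bp apart, and 371 of 429 lay within 50 bp.

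An IM-only peak was often a neighbour of a peak of another type. The nearest AM, iMo or pMo peak centre lay a median of 5104 bp away, with quartiles of 733 and 15985 bp, and was within 1 kb for 130 of the 429 peaks (30.3%). Just inside the rule lay 5 peaks whose nearest other centre was 201 to 217 bp away, at Cdca7l, Trip12, Rbpms, Gm35135 and Dcaf1. Just outside lay 5 peaks of both strains that another type overlapped by at most 20 bp. On the side of the strains, 5 IM-only peaks overlapped their DBA2J peak by at most 20 bp, and 5 C57BL6J peaks of no other type missed a DBA2J peak by at most 20 bp.

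**Figure D1:**
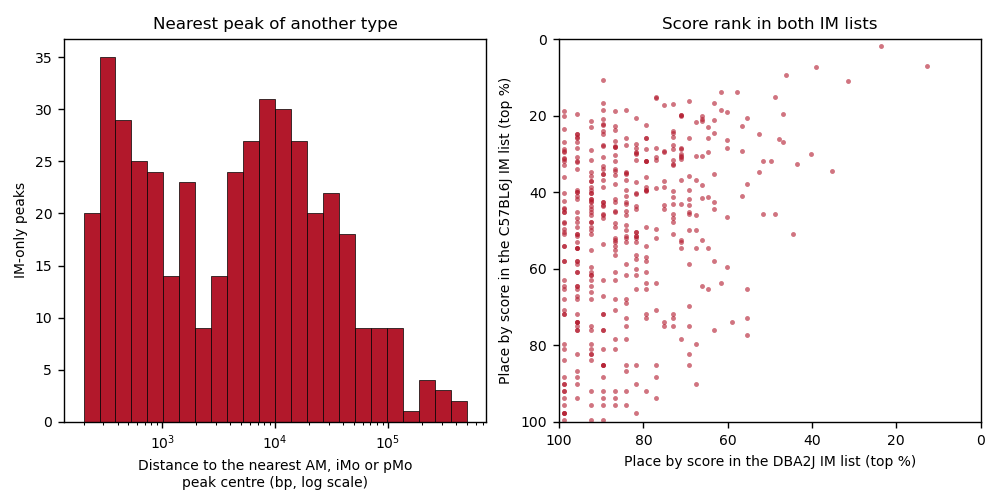
Left, number of IM-only peaks by the distance in bp (log scale) from their centre to the nearest AM, iMo or pMo peak centre. Right, the place of each of the 429 peaks by score in the DBA2J IM list and the C57BL6J IM list, in percent from the top, with the best places at the upper right. The distances form a group below 1 kb (130 peaks) and a broad group around 10 kb, and most points lie on the left, near the bottom of the DBA2J list.

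By place, 121 IM-only peaks (28.2%) had their centre within 1 kb of a transcription start, 138 (32.2%) lay farther off inside a gene and 170 (39.6%) between genes. Among the other 22916 IM peaks found in both strains the share within 1 kb was 47.5%. It was 4.98% of 3975 AM-only, 20.0% of 335 iMo-only and 9.13% of 208 pMo-only peaks made by the same rule. The median distance to the nearest start was 8618 bp for IM-only peaks and 1488 bp for the other IM peaks of both strains. Exons, introns and UTRs cannot be told apart here, since the files give gene spans alone. The IM-only peaks lay on chromosomes 1 to 19 and X, with 10 of them on X.

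**Figure D2:**
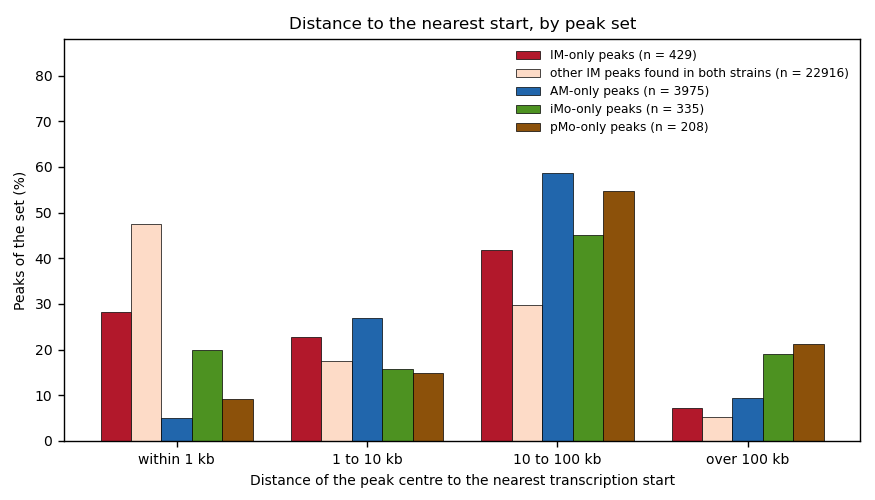
Share of peaks (y axis, %) in 4 classes of distance between the peak centre and the nearest transcription start (x axis), for IM-only peaks, other IM peaks of both strains, and AM-only, iMo-only and pMo-only peaks. IM-only peaks were within 1 kb in 28.2%, which lies between the other IM peaks (47.5%) and the peaks listed for 1 other type alone (4.98% to 20.0%).

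The IM-only peak with the best mean place over both lists lay at Ptgs2, at chr1:150100108-150100308 (mm10), 177 bp downstream of the start. Its scores were 144.6 in DBA2J and 125.9 in C57BL6J, and a further IM-only peak of Ptgs2 lay at chr1:150100952-150101152. Peaks of pMo and iMo were listed 228 and 246 bp from its centre, and the nearest AM peak 45031 bp away. Among the next places were peaks nearest to Ncf1 (7412 bp away), Fos (1206 bp), 2700054A10Rik (1881 bp), Nudt4 (70309 bp), Mir101c, Hdhd2 (11 bp) and Tgif2 (10686 bp). Peaks of iMo, AM and pMo were listed 258, 260 and 270 bp from the centre of the Hdhd2 peak. Most genes had 1 IM-only peak, and 12 of 380 had 2 or more. The largest number, 7, was assigned to Mir101c and lay in the first 3.1 Mb of chromosome 9, and 3 lay at Sfi1 on chromosome 11. Both regions are known for repeated sequence where reads of many copies can pile up, and their part in these peaks was not tested. Without these 10 peaks 419 remain, of which 28.6% lay within 1 kb of a start.

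RNA was not used to choose the peaks, so the RNA of the nearest genes can be tested. The start nearest to each peak within 100 kb gave 380 genes for 398 peaks, and 31 peaks had none. Of the 380 genes 245 had a 16-library mean of 1 TPM or more and were tested, 135 did not, and 21 were listed at 0 in all 16. A gene high in IM alone can pass this limit through its IM level, so counts over the 245 describe those genes and not all 380. Levels were compared as log2(TPM + 1) with limma over all 12277 genes that passed, with the threshold at 0.05 for the p adjusted by Benjamini-Hochberg within a contrast.

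Of the 245 genes 51 (20.8%) were called higher in IM than in each of AM, iMo and pMo, beside 10.6% of all tested genes, and 1 (0.408%) was called lower than each, beside 0.782%. Against AM alone 171 (69.8%) were higher and 25 lower, beside 61.1% and 9.19% of all genes. Against iMo 88 (35.9%) were higher and 32 lower, beside 21.7% and 15.6%. Against pMo 111 (45.3%) were higher and 22 lower, beside 30.3% and 9.2%. The median log2 difference was 0.94 against AM, 0.26 against iMo and 0.41 against pMo for the 245 genes, and 0.68, 0.10 and 0.26 for all tested genes. In 25 of the 245 genes all 4 IM libraries lay above all 12 other libraries, which was so for 6.27% of all tested genes.

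These shares depend on the scale, because the 2 ribosomal entries Rn45s and Mir6236 took 22.6% to 67.6% of the TPM total of a library and took most in AM. Under median-of-ratios scaling, which sets the median difference of all genes near 0 (-0.08 against AM), 28 of 240 genes (11.7%) were higher in IM than in each other type, beside 5.29% of all genes, and 3.33% were lower than each, beside 7.12%. Under this scaling 40.0% were higher and 26.2% lower than in AM, beside 28.3% and 33.6% of all genes. Against iMo 33.3% were higher and 23.8% lower, beside 20.2% and 25.4%, and against pMo 31.2% were higher and 23.8% lower, beside 19.8% and 23.9%. With TPM rescaled without the 2 ribosomal entries, 50.4% were higher and 14.9% lower than in AM, beside 38.9% and 19.7% of all genes. On that scale 47.4% were higher than in iMo, beside 34.6%, 42.5% higher than in pMo, beside 27.1%, and 16.4% higher than in each type, beside 10.5%, while lower than each were 0.746%, beside 2.03%. The share lower than iMo was then 9.70%, beside 10.6%, and the share lower than pMo 13.1%, beside 12.7%. With a minimum of 2-fold added on the scale as deposited, 46.1% were higher and 6.12% lower than in AM, beside 32.9% and 4.33% of all genes. Against iMo the 2-fold shares were 25.7% higher and 2.45% lower, beside 10.8% and 3.62%, and against pMo 25.3% higher and 3.27% lower, beside 13.1% and 2.79%. The share higher than in all 3 was above the share of all genes on each of the 3 scales.

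Genes with a peak close to the start had the larger shares. Of all tested genes 10.6% were higher in IM than in each other type on the scale as deposited. That share was 5.29% under median-of-ratios scaling and 10.5% without the ribosomal entries. Genes of other IM peaks were not divided by distance. Of 81 tested genes with an IM-only peak within 1 kb of the start 26 (32.1%) were higher in IM than in each other type, against 12 of 64 (18.8%) at 1 to 10 kb and 13 of 100 (13%) at 10 to 100 kb. Under median-of-ratios scaling the share within 1 kb was 14 of 78 (17.9%), against 8.64% for genes whose peaks all lay beyond 1 kb, and without the ribosomal entries it was 22.3%, against 13.2%. Across the 245 genes, which are not independent replicates, Spearman's rho between the distance and the log2 difference of IM from the mean of the other types was -0.16, and between the place of the peak by score and that difference -0.07. Where a peak centre of another type lay within 700 bp of the IM-only peak, 16.2% of 80 genes were higher in IM than in each other type. Without such a neighbour it was 23.2% of 168 genes. Under median-of-ratios scaling these shares were 11.4% and 12.2%, and without the ribosomal entries 14.1% and 17.7%. Genes of iMo-only peaks were higher in IM than in each other type in 18.4% of 114, genes of AM-only peaks in 9.22% of 1595 and genes of pMo-only peaks in 7.69% of 104. Nothing particular to the IM-only peaks is claimed from these shares.

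**Figure D3:**
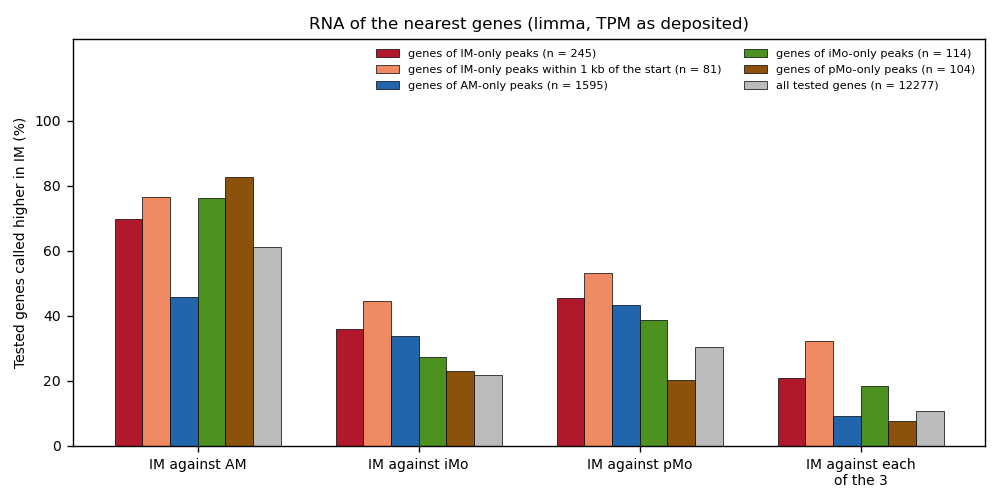
Share of tested genes called higher in IM (y axis, %, limma adjusted p under 0.05) against AM, iMo, pMo and each of the 3 (x axis), for the nearest genes of 4 peak sets, for the genes of IM-only peaks within 1 kb of the start, and for all 12277 tested genes. Against each of the 3, the genes of IM-only peaks reached 20.8% and those within 1 kb 32.1%, beside 10.6% of all genes; under median-of-ratios scaling, not drawn, these were 11.7%, 17.9% and 5.29%.

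Ptgs2 and Cxcl2 were among the 12 genes with the widest gaps to the next type, of those with at least 10 TPM in IM. Ptgs2, the cyclooxygenase that makes prostaglandins in inflammation, had 23.4 and 11.8 TPM in the DBA2J and 44.4 and 11.9 TPM in the C57BL6J IM libraries. It had 0, 0.12, 0 and 0.032 TPM in the 4 AM libraries, 0.609, 1.077, 0.459 and 1.449 TPM in iMo, and 0.542, 0, 2.442 and 1.459 TPM in pMo. All 4 IM libraries lay above the other 12, and the log2 difference was 4.32 ± 0.37 (SE) against AM, 3.48 ± 0.37 against iMo and 3.44 ± 0.37 against pMo (limma adjusted p of 2.1e-06, 3.3e-05 and 3.2e-05). Cxcl2, a chemokine that draws neutrophils, had 62.8, 75.8, 109 and 73.9 TPM in IM, against means of 7.71 ± 2.33 TPM in AM, 2.47 ± 1.58 in iMo and 10.9 ± 7.71 in pMo (SD, n = 4 libraries each). Its groups did not overlap, and the smallest log2 difference was 3.0 ± 0.20 against pMo (limma adjusted p 8.7e-07). Peaks of iMo, AM and pMo were listed 472, 534 and 537 bp from the centre of the Cxcl2 peak.

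Il1r2 and Il18rap, both of the interleukin-1 receptor family, were also among the 12. Il1r2, the decoy receptor for interleukin-1, which is also made by neutrophils, had 13.4 and 12.9 TPM in DBA2J and 16.2 and 14.9 TPM in C57BL6J IM, against a mean of 0.008 ± 0.010 TPM in AM, 0.546 ± 0.478 in iMo and 0.141 ± 0.052 in pMo (SD, n = 4). Its peak lay 1333 bp upstream of the start, and its log2 differences ran from 3.35 ± 0.17 to 3.92 ± 0.17. Il18rap, the second chain of the interleukin-18 receptor, had 38.7 and 33.5 TPM in DBA2J and 20.6 and 15.2 TPM in C57BL6J IM, against 7.70 ± 5.07 TPM in pMo, the next highest type. The lowest IM library was above the highest pMo library at 14.2 TPM, but with C57BL6J alone the difference from pMo was 0.64 and was not called. Its promoter is the one printed above with the GAGGAAGT match, and the peak lay 19 bp upstream of the start. These 4 genes are set beside the neutrophil markers given above, which were high in the same libraries.

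Pmp22, Fxyd2 and Plxdc2 were likewise among the 12. Pmp22, a membrane protein known from peripheral myelin, had 11.8 and 14.5 TPM in DBA2J and 21.8 and 43.3 TPM in C57BL6J IM, and at most 1.48 TPM in any other library. It carried 2 IM-only peaks, 182 bp downstream and 1336 bp upstream of the start, the second of which overlaps the RefSeq promoter window printed above. Its log2 difference was 3.78 ± 0.24 against AM, 3.97 ± 0.24 against iMo and 3.50 ± 0.24 against pMo (limma adjusted p of 2.0e-07, 4.8e-07 and 1.1e-06). By Pmp22 the IM libraries stood in the order of their endothelial sums given above, and the part of endothelial RNA was not tested. Fxyd2, a regulatory subunit of the sodium-potassium pump, had 13.6, 12.4, 11.1 and 32.8 TPM in IM, against means of 0.067 TPM in AM, 0.112 TPM in iMo and 0.754 TPM in pMo. Plxdc2, a membrane protein with a plexin domain, had 15.0 and 18.0 TPM in DBA2J and 7.69 and 6.45 TPM in C57BL6J IM, above the 2.63 TPM of the highest other library.

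Dhrs9, a dehydrogenase of retinoid and steroid metabolism, had 37.2 and 29.9 TPM in DBA2J and 13.96 and 9.97 TPM in C57BL6J IM, and at most 0.328 TPM elsewhere. Its peak lay 34266 bp from the start, and the log2 difference was at least 4.15 ± 0.16 against each type (limma adjusted p at most 3.3e-08). Zmynd15, a zinc finger protein described as a repressor in male germ cells of the mouse, had 23.3 and 22.3 TPM in DBA2J and 74.2 and 117 TPM in C57BL6J IM, and at most 5.16 TPM in the other 12 libraries. Prg4, the lubricant protein of joints, had 49.0 and 74.4 TPM in DBA2J and 15.8 and 6.45 TPM in C57BL6J IM. The lower C57BL6J value lay below the 2 C57BL6J pMo libraries at 6.97 and 10.5 TPM, so the groups overlapped, and with C57BL6J alone the difference from pMo was 0.22 and was not called.

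Emp1, an epithelial membrane protein, had 106 and 91.5 TPM in DBA2J and 80.2 and 90.8 TPM in C57BL6J IM, but iMo split by strain, with 97.7 and 78.8 TPM in DBA2J and 2.74 and 4.46 TPM in C57BL6J. With DBA2J alone the difference from iMo was 0.17 and was not called. Cyr61, a matrix protein induced by growth signals, had 0 and 3.52 TPM in DBA2J and 15.5 and 35.0 TPM in C57BL6J IM, and at most 1.49 TPM elsewhere, and it was called against no type with DBA2J alone. The order of the 4 IM libraries by Cyr61 is the order of their endothelial sums given above, and the part of endothelial RNA in its level was not tested. For these 12 genes all 36 comparisons stayed called under 3 other scalings. The 12 were picked for wide called differences in the same libraries, so this is no separate test. Fits of a single strain lost some of these calls, as given above for Il18rap, Prg4, Emp1 and Cyr61.

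**Figure D4:**
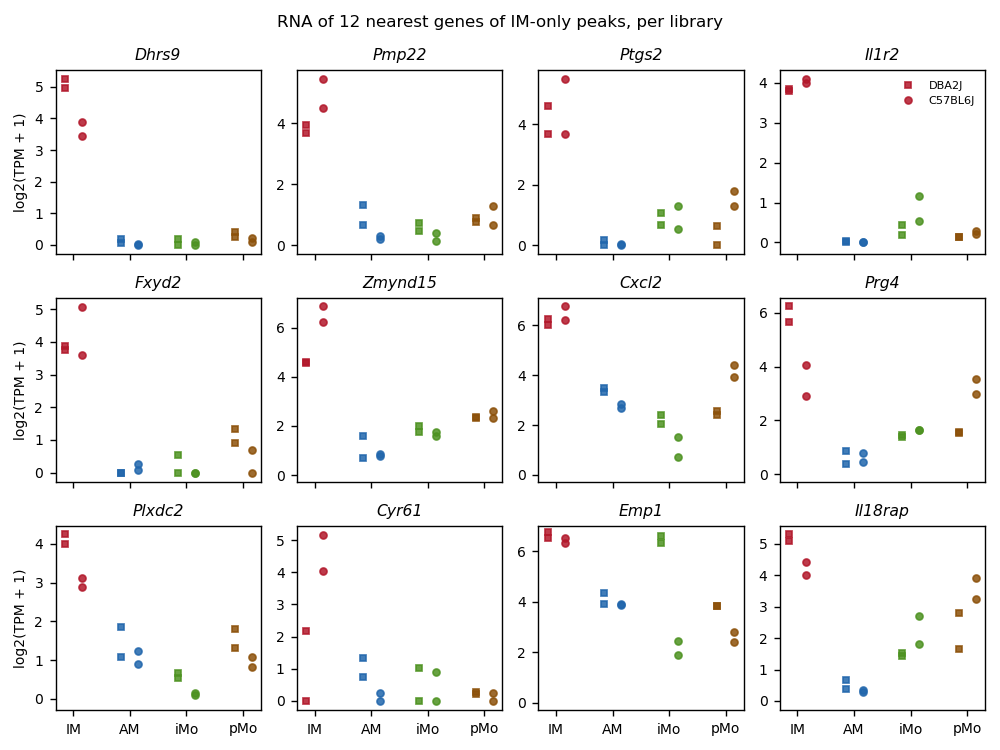
RNA level as log2(TPM + 1) in each of the 16 libraries for the 12 nearest genes of IM-only peaks with at least 10 TPM in IM and the largest smallest difference from the other types; squares are DBA2J and circles C57BL6J libraries, and columns are IM, AM, iMo and pMo. In Dhrs9, Pmp22, Ptgs2, Il1r2, Fxyd2, Zmynd15, Cxcl2, Plxdc2 and Il18rap all IM libraries lie above all others, while Prg4, Cyr61 and Emp1 overlap with another type.

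The genes of the other promoters printed above were also called higher in IM than in each other type on the scale as deposited, but for Cd81 and Ctla2a the call against AM rests on that scale. Kitl, the ligand of the receptor KIT, had 3.36 and 5.20 TPM in DBA2J and 9.26 and 9.84 TPM in C57BL6J IM, against means of 0.572 TPM in AM, 0.222 TPM in iMo and 0.276 TPM in pMo. Its peak lay 96 bp upstream of the start, and no peak of another type was listed within 302321 bp. Cd81, a tetraspanin, had 44.4 and 50.0 TPM in DBA2J and 75.4 and 126 TPM in C57BL6J IM, against 42.3 ± 4.10 TPM in AM, 3.12 ± 1.33 TPM in iMo and 13.6 ± 1.06 TPM in pMo (SD, n = 4), so that the gap was narrow against AM (log2 0.67 ± 0.23, limma adjusted p 0.021) and wide against iMo (4.12 ± 0.23). The difference of Cd81 from AM turned to -0.21 under median-of-ratios scaling and was 0.15 without the ribosomal entries, neither of them called. By Kitl and by Cd81 the IM libraries stood in the order of their endothelial sums given above. The part of endothelial RNA in the levels of Kitl and Cd81 was not tested. Ctla2a, a protease inhibitor, had 1.09 and 16.0 TPM in DBA2J and 10.3 and 16.7 TPM in C57BL6J IM, and the lowest IM library, which also had the lowest endothelial sum, lay within the range of the other types. Its difference from AM was 1.75 as deposited, 1.13 under median-of-ratios scaling and 1.61 without the ribosomal entries, and only the first was called.

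Other genes called higher in all 3 comparisons, picked after their values were seen, had promoter peaks too. Bmp2, a growth factor of the TGF-beta family, averaged 4.84 TPM in IM and at most 0.121 TPM in another type. Itga6, an integrin chain that binds laminin, averaged 8.82 ± 1.97 TPM in IM, against 2.00 ± 0.376 TPM in AM, 0.559 ± 0.430 TPM in iMo and 0.772 ± 0.351 TPM in pMo. Srgn, the proteoglycan core of secretory granules, averaged 193 ± 69.2 TPM in IM, against 7.79 ± 1.26 TPM in AM, 79.1 ± 15.9 TPM in iMo and 132 ± 71.6 TPM in pMo. Its call against pMo was lost under median-of-ratios scaling (0.26). Peaks of pMo, iMo and AM were listed 283, 288 and 298 bp from the centre of its IM-only peak. Il1bos, the RNA antisense to Il1b, averaged 12.1 TPM in IM and at most 2.53 TPM in another type, but reads of Il1b and Il1bos may not be told apart, since stranded counting is not stated.

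The gene called lower in IM than in each other type was Unc119, a carrier of lipid-modified signalling proteins. It had 114 and 101 TPM in DBA2J and 113 and 109 TPM in C57BL6J IM, against means of 277 ± 20.5 TPM in AM, 149 ± 21.4 TPM in iMo and 200 ± 32.5 TPM in pMo (SD, n = 4). All 4 IM libraries lay below the other 12, of which the lowest was 128 TPM in iMo. The log2 difference was -1.33 ± 0.11 against AM and -0.44 ± 0.11 against iMo (limma adjusted p of 1.3e-06 and 0.0086), and the iMo call was lost with DBA2J alone, under quantile normalization and without the ribosomal entries.

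The nearest genes of the best placed peaks followed no common pattern. Fos, a subunit of AP-1 and an immediate early gene, had 477 and 454 TPM in DBA2J and 889 and 880 TPM in C57BL6J IM, against a mean of 630 ± 242 TPM in iMo, from which it was not called different (log2 0.11 ± 0.29, limma adjusted p 0.80). It was higher than in pMo (1.73 ± 0.29, limma adjusted p 0.00067), a call lost with C57BL6J alone. Ncf1, a subunit of the NADPH oxidase, averaged 247 ± 23.8 TPM in IM and 246 ± 39.8 TPM in iMo, and its log2 difference from AM of 0.35 ± 0.14 turned to -0.55 under median-of-ratios scaling. Nudt4, a phosphohydrolase of inositol phosphates, had 77.0 and 62.0 TPM in DBA2J and 46.9 and 31.5 TPM in C57BL6J IM, above the highest other library at 25.0 TPM.

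Of 350 genes in 22 lists of cell markers and pathways, 10 (2.86%) were the nearest gene of an IM-only peak, beside 1.52% of all 24940 genes. These were Abcg1, Cdh1, Col1a1, Cx3cl1, Cxcl2, Cxcr4, Fos, Fosl2, Jun and Ptgs2. Of them Cxcl2 and Ptgs2 were higher in IM than in each other type. Some of the 10 are markers of other cells: Abcg1 of AM, Cdh1 of epithelium and Col1a1 of fibroblasts. In the IM libraries the epithelial list summed to 8.115 to 70.86 TPM and the fibroblast list to 0.919 to 14.28 TPM. The part of such cells in these peaks was not tested. Of all 24940 genes 49.2% passed the RNA filter, against 64.5% of the genes of IM-only peaks, and 3948 were at 0 in every library. The lists were not set against expressed genes alone, so no excess is claimed from these 10 genes. Among the 23 chemokines 12 were higher than in all 3 types, beside 10.6% of all tested genes, and Cxcl2 and Cx3cl1 alone had an IM-only peak. Of the 24 genes of the NF-kB list 20 were higher and 1 lower than in AM, 9 higher and 5 lower than in iMo, and 4 higher and 6 lower than in pMo, and Ptgs2 alone had an IM-only peak. The shares of all tested genes were 61.1% higher and 9.19% lower than in AM, 21.7% and 15.6% for iMo, and 30.3% and 9.2% for pMo. Under median-of-ratios scaling 15 of the NF-kB list were higher and 4 lower than in AM, 8 higher and 8 lower than in iMo, and 4 higher and 13 lower than in pMo.

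The AP-1 genes with an IM-only peak followed no common order. Jun had 80.0 and 77.7 TPM in DBA2J and 136 and 205 TPM in C57BL6J IM, with means of 68.3 TPM in AM, 66.5 TPM in iMo and 119 TPM in pMo, and was called higher than in AM and iMo. Its difference from AM, 0.75 ± 0.14, turned to -0.15 under median-of-ratios scaling. Fosl2 averaged 86.7 ± 19.8 TPM in IM, below the 116 ± 20.4 TPM of iMo and above the 56.2 ± 13 TPM of pMo, a difference of 0.62 that was 0.25 and not called under median-of-ratios scaling.

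Abcg1, Cx3cl1 and Cxcr4 of the lists also carried an IM-only peak. Abcg1, the cholesterol exporter that is high in AM, had 42.2 and 55.8 TPM in DBA2J and 72.1 and 119 TPM in C57BL6J IM, against a mean of 374 ± 33.6 TPM in AM, 18.7 ± 3.08 TPM in iMo and 37.6 ± 8.41 TPM in pMo. Its IM-only peak was 564 bp from the start, with an AM peak 406 bp away. Cx3cl1, the ligand of the fractalkine receptor, averaged 6.25 TPM in IM, 21.1 TPM in AM, 0.318 TPM in iMo and 0.588 TPM in pMo. Siglecf, a defining marker of AM, was at 8.62 and 9.13 TPM in DBA2J and 27.6 and 81.8 TPM in C57BL6J IM, in the same order of strains as Abcg1 and Cx3cl1, and its part in their level was not tested. Cxcr4, the receptor of Cxcl12, had 262 and 187 TPM in DBA2J and 326 and 297 TPM in C57BL6J IM and was not called different from pMo (257 ± 173 TPM).

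Since the peaks were listed in both strains, the RNA of the strains within IM was compared too. Of the 245 genes 10 (4.08%) were called higher and 19 (7.76%) lower in DBA2J than in C57BL6J IM, beside 3.77% and 6.74% of all tested genes, so both shares were near the background on the scale as deposited. With median-of-ratios factors the higher and the lower share were both 8.75%, beside 5.65% and 7.08% of all genes, and after quantile normalization they were 10.2% and 13.5%, beside 8% and 9.61%. Without the ribosomal entries they were 4.85% and 9.70%, beside 3.96% and 8.12%. In all 29 the 2 libraries of one strain lay above the 2 of the other. The call came from the same libraries, so this is no separate test of the difference. In 20 of the 245 genes the difference of IM from the mean of the other types depended on strain, beside 4.55% of all genes. The shares moved between 1.63% and 8.16% higher and between 3.67% and 11.8% lower when 1 library was left out, with C57BL6J replicate 1 giving the highest of both, C57BL6J replicate 2 giving 2.45% and 4.08%, DBA2J replicate 1 the lowest of both, and DBA2J replicate 2 giving 2.45% higher.

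The widest of these differences was that of Cyr61, given above, at -3.52 ± 0.65 on the log2 scale (DBA2J minus C57BL6J, limma adjusted p 0.0064), and it was not called without C57BL6J replicate 2 (-2.95). Sfi1, a centrosome protein, had 166 and 157 TPM in DBA2J and 31.5 and 25.2 TPM in C57BL6J IM, a difference of 2.47 ± 0.20 (limma adjusted p 3.1e-05). The same gap stood in the other types, with 79.7 and 85.1 TPM in DBA2J and 9.59 and 8.92 TPM in C57BL6J AM, so that the difference of IM from the other types did not depend on strain beyond the error (0.10 ± 0.23, limma adjusted p 0.83). Copies of Sfi1 sequence can share reads, so its level is uncertain. Prg4 differed by 2.46 ± 0.36 and Zmynd15 by -1.99 ± 0.28 (limma adjusted p of 0.0020 and 0.0018).

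Cx3cl1 differed by -1.92 ± 0.35, with 1.37 and 2.36 TPM in DBA2J and 5.96 and 15.3 TPM in C57BL6J IM, and the call was lost without DBA2J replicate 1. Pld3, a lysosomal nuclease that is high in AM, had 20.7 and 24.2 TPM in DBA2J and 55.8 and 86.0 TPM in C57BL6J IM, a difference of -1.59 ± 0.26 (limma adjusted p 0.0034). Dnajb13, a co-chaperone of sperm and cilia, had 9.14 and 15.3 TPM in DBA2J and 42.1 and 33.8 TPM in C57BL6J IM. Sik1, a salt-inducible kinase, had 53.2 and 41.3 TPM in DBA2J and 159 and 119 TPM in C57BL6J IM. Sik1 and Dnajb13 were also lower in DBA2J in iMo and pMo by their library values, and the strain dependence of their IM difference was not called (-0.91 ± 0.26 and -0.73 ± 0.27).

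**Figure D5:**
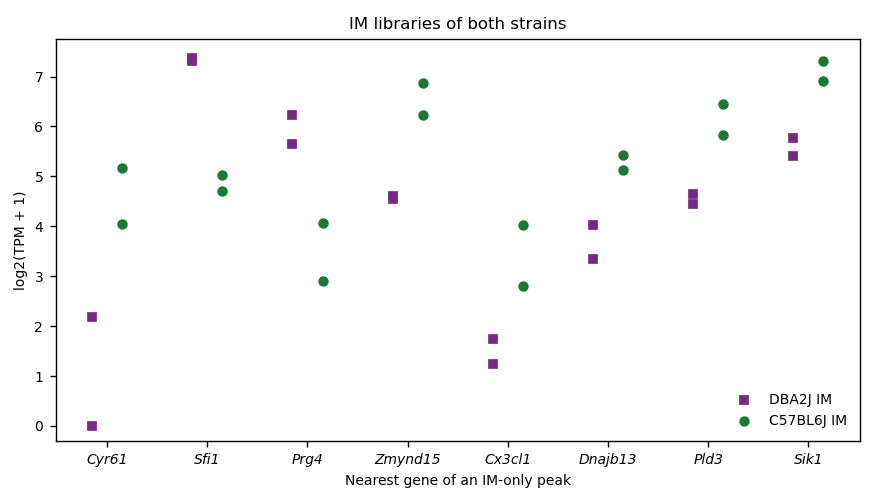
RNA level as log2(TPM + 1) in the 2 DBA2J (squares) and 2 C57BL6J (circles) IM libraries for the 8 nearest genes of IM-only peaks with the largest called difference between strains. The strains do not overlap in any of the 8, which were picked for this difference. Sfi1 and Prg4 are higher in DBA2J and the other 6 lower.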

How the data were processed

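RNA-seq and ATAC-seq of 4 lung phagocyte types in 2 strains were used. The members, gene lists, motifs and tests were chosen with earlier results of these data known. The authors deposited RNA levels as TPM for 24940 genes and, per group, 1 list of 200 bp peaks from 2 ATAC-seq libraries with a score per peak of unstated scale; coordinates are mm10 as deposited. Per the submitters' processing notes STAR, Bowtie and HOMER were used, with no role or version given. The length in the deposited table is the genomic span of a gene, so TPM is per span, and its sum was 632076 to 822130 per library. No 2 libraries held identical values.

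Peaks were compared with Python 3.11.15, pandas 2.3.3 and numpy 2.4.6, and each was assigned to the nearest start in the deposited table within 100 kb. Tests used limma 3.58.1 (R 4.3.3) on log2(TPM + 1), with means for the 8 groups of 2 libraries (8 residual degrees of freedom), eBayes with trend, a filter at a mean of 1 TPM and Benjamini-Hochberg adjustment per contrast; contrasts between types were averaged over the strains. In simulated data of 12277 genes, a log2 difference of 1 between IM and AM was recovered in 56% and one of 2 in 91% of 100 genes each, with 7 false calls. Only these genes differed between groups there, whereas 61.1% of tested genes were called higher than in AM in the data. The simulation therefore does not measure the recovery or error of the reported calls. Genes were named by rule: the 12 with the most peaks; the 12 with at least 10 TPM in IM and the largest smallest difference from the other types; those lower likewise; the 8 with the largest strain difference; the nearest genes of the 10 best placed peaks; and list members. Some of them are left out, and predicted genes were excluded from the rule. Motifs were searched in RefSeq promoter windows of GRCm38.p6, from 250 bases before to 50 after a start, in place of whole peaks. Alternatives covered the pseudocount, filter, scaling, trend, block, assignment, peak selection, single strains and leaving out each library. Figures were drawn with matplotlib 3.10.9.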

Additional observations from a re-analysis of the deposited data

Results flagged for a closer look

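In 20 of the 245 tested genes the difference of IM from the mean of the other types depended on strain (limma interaction, adjusted p under 0.05), beside 4.55% of all tested genes; 7 of them are named in the report. The values below are the log2 difference in DBA2J minus that in C57BL6J. Prg4 had 3.1 ± 0.41 (adjusted p 0.0036), with IM above pMo in DBA2J and not called so in C57BL6J. Dhrs9 had 1.31 ± 0.27 and Nudt4 1.15 ± 0.28 (adjusted p of 0.021 and 0.046), both with more RNA in DBA2J IM. Cyr61 had -3.88 ± 0.74, Zmynd15 -2.11 ± 0.33 and Pld3 -1.36 ± 0.30 (adjusted p of 0.017, 0.0073 and 0.028), all with more RNA in C57BL6J IM. Emp1 had -1.72 ± 0.26 (adjusted p 0.0065), with like levels in IM of both strains and 97.7 and 78.8 TPM in DBA2J iMo, against 2.74 and 4.46 TPM in C57BL6J iMo. The endothelial, neutrophil and Siglecf RNA of the IM libraries also differed by strain, and its part in these values was not tested.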

How the results depend on the processing

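Of 310 alternative values of the counts and shares 278 stayed within 1.5 times the value reported. Against AM the shares called higher and lower were 40.0% and 26.2% under median-of-ratios scaling, 43.7% and 24.1% under quantile normalization and 46.1% and 6.12% at a minimum of 2-fold. Against iMo they were 22.4% and 7.76% with DBA2J alone, 23.8% lower under median-of-ratios scaling and 2.45% lower at 2-fold. Against pMo they were 25.3% and 3.27% at 2-fold, and 23.8% and 19.2% lower under median-of-ratios scaling and quantile normalization. Higher than in all 3 were 12.2% with DBA2J alone, 12.5% at a mean of 5 TPM, 11.7% under median-of-ratios scaling (5.29% of all genes) and 13.1% under quantile normalization. With DBA2J alone, at 5 TPM and under quantile normalization, no share of all genes is given for the comparisons between types. Those shares cannot be set against the 10.6% of all genes on the scale as deposited. Within IM, DBA2J was higher in 8.75% under median-of-ratios scaling (5.65% of all genes) and 10.2% under quantile normalization (8%). DBA2J was lower in 13.5% under quantile normalization (9.61%). The share higher in DBA2J was 2.45% at a pseudocount of 0.1 and 7.23% for the peaks best placed by score in both lists. No share of all genes is given beside the 2.45% and 7.23%, so no shift is claimed from them. Without the demand for a DBA2J peak there were 20477 peaks, 16.5% of them within 1 kb of a start. The cause of these changes was not tested.

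When each library was left out in turn, the shares higher and lower ran from 63.7% to 70.6% and 9.39% to 11% (AM), 31.4% to 37.1% and 10.6% to 14.3% (iMo), 36.3% to 45.7% and 7.76% to 11.4% (pMo), and 1.63% to 8.16% and 3.67% to 11.8% (strain), and 15.9% to 21.2% were higher than in all 3. Leaving 1 library in a group assumes that it varies like the other groups. The shares of all genes in these fits, and in the fit with a block below, are not given here.

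With the replicate number as a block the shares were 69.4% and 10.6% (AM), 35.5% and 13.9% (iMo), 44.5% and 9.39% (pMo), 20.4% (all 3) and 3.67% and 8.16% (strain). The numbers share a name and no known animal: over 28 pairs of groups the deviations of same-numbered libraries correlated with a median of 0.02 (from -0.07 to 0.20), and 5 were over 0.1.

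Of 2193 values of the named genes 81 lost their call and 10 changed sign. The lost calls included wide differences, such as that of Fos from pMo with C57BL6J alone, given above. The 10 sign changes were all of small differences. Against AM these were Hdhd2 (-0.27 median-of-ratios, -0.46 quantile), Jun (-0.15 median-of-ratios), Selenow (-0.32 and -0.08) and Ncf1 (-0.55 and -0.17, -0.19 without the ribosomal entries, -0.10 with DBA2J alone). Against pMo it was Hdhd2 (-0.15 quantile). The motif search over whole peaks, and its 2 alternatives, were not run, because no genome was used here.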

Other observations

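Among the 135 genes of IM-only peaks below the filter on low values, 78 had their highest mean in IM, and in 12 all 4 IM libraries lay above the other 12. The same counts over all genes below the filter are not given here, so no excess is claimed from them. The genes named below were picked after their values were seen and were not tested. Etv1, an ETS factor, had 2.32 and 2.16 TPM in DBA2J and 1.04 and 3.06 TPM in C57BL6J IM, and at most 0.325 TPM elsewhere. Hif3a, a relative of the hypoxia factors, stood at 6.10 TPM in C57BL6J IM replicate 2 and at most 0.136 TPM in the other 15 libraries. Lama5, a laminin chain of basement membranes with 2 IM-only peaks, had 0.089 and 0.245 TPM in DBA2J and 1.88 and 3.62 TPM in C57BL6J IM. Hoxa5, a homeobox gene of the developing lung, had 0 and 2.40 TPM in DBA2J and 1.10 and 5.45 TPM in C57BL6J IM, and Eln, the gene of elastin, 0.098 and 1.35 TPM in DBA2J and 1.23 and 2.55 TPM in C57BL6J IM. In Hif3a, Lama5, Hoxa5 and Eln the C57BL6J replicate 2 library was highest of the IM libraries, as it was for the endothelial and fibroblast sums (244.2 and 14.28 TPM).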
